A study of Mus musculus with 9 samples.

Results

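Forkhead (Fox) genes encode transcription factors that share a winged-helix DNA-binding domain, the forkhead box. All protein-coding genes named Fox plus a letter from a to s plus a number were taken, which gave 44 of the 55487 genes in the count table. Of the 44, 43 had at least 1 count in some library and 25 had enough counts to be tested. The 19 others are described below by their highest level.

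The libraries came from MCEC, an established endothelial line from mouse heart, and were made by poly-A RNA-seq. The 9 libraries formed 3 groups of 3. WT cells were labelled as wild type, KD cells carried a knockdown of Zbtb46, and OE cells overexpressed Zbtb46, which encodes a zinc-finger transcription factor with a BTB domain. The labels do not give the knockdown reagent, the expression vector or its promoter, or whether the modified cells were clones. No library from cells with a control vector was analysed here, so an effect of making the modified lines cannot be told apart from an effect of Zbtb46. Ages and strains of animals do not apply to the line, and nothing says whether the 3 libraries of a group came from separate cultures. P-values therefore measure only the spread between these libraries, which may be technical.

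Total counts ran from 39491828 to 55745849 per library. Zbtb46 stood at 13.3, 14.4 and 13.3 CPM (counts scaled to a common library size) in WT replicates 1, 2 and 3, at 11.7, 11.4 and 10.7 CPM in KD, and at 192, 189 and 194 CPM in OE, so its mRNA fell by 17.8% in KD and was 13.99-fold higher in OE than in WT. Of 14 endothelial markers 6 passed the filter on low counts, among them Eng at 124.5 ± 6.78 CPM (SD, n = 3) and Flt1 at 17.2 ± 0.196 CPM in WT. Erg had 0 counts in every library, Cldn5 had 0 in WT and KD, and Cdh5 had 0 in KD, while the fibroblast gene Col1a1 stood at 5259 ± 290 CPM in WT. Some defining markers of the labelled cell type were thus missing from a whole group. Of the 14, 2 were undetected throughout WT, 4 throughout KD and 2 throughout OE. Erg alone was undetected in all 3 groups. The cardiomyocyte gene Myh6 had 0 counts in every group, and the macrophage gene Adgre1 had 0 in WT and KD. Other cardiomyocyte and leukocyte markers were detected at low levels. The 8 cardiomyocyte markers summed to 0.908 to 1.66 CPM per WT library, 0.861 to 1.53 per KD library and 1.80 to 2.15 per OE library. For the 6 leukocyte markers the sums were 3.77 to 4.05, 4.75 to 5.10 and 2.82 to 4.24 CPM. The 5 epithelial markers summed to 461.0 to 563.1 CPM in WT, 437.0 to 459.3 in KD and 461.8 to 482.7 in OE. For the 4 lymphatic markers the sums were 202.3 to 207.6, 202.2 to 210.0 and 158.6 to 163.5 CPM. In WT both lists summed to more than the 14 endothelial markers, at 146.9 to 159.7 CPM.

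Forkhead proteins bind short A and T rich DNA motifs, and the families differ in how they are controlled. FoxO proteins are phosphorylated by Akt downstream of insulin and growth factor receptors and then leave the nucleus, FoxM1 drives genes of mitosis, FoxA proteins open closed chromatin, and FoxP proteins mostly repress. In blood vessels, Foxc1, Foxc2 and Foxf1 take part in vascular development, and Foxo1 restrains the growth of endothelial cells.

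The most abundant forkhead transcripts in WT belonged to different families. On the scale of CPM per kb of annotated exon, which allows levels of different genes to be compared, Foxm1 stood at 44.9 ± 0.573, Foxp4 at 39.9 ± 1.11 and Foxo6 at 38.2 ± 2.58. The Foxp4 and Foxo6 levels differed by less than the SD of Foxo6, though by more than that of Foxp4. Of the others reported here, Foxk2 stood at 29.9, Foxk1 at 17.3, Foxa2 at 17.0 and Foxc1 at 11.2 CPM per kb. Foxj2, Foxp1, Foxo4, Foxo3, Foxj3, Foxn2, Foxf2, Foxn3, Foxo1 and Foxf1 lay between 9.51 and 1.47 CPM per kb, in that order. The lowest tested members were Foxa1 at 0.740, Foxd2 at 0.568, Foxd1 at 0.222, Foxq1 at 0.147, Foxa3 at 0.124, Foxj1 at 0.0648 and Foxp2 at 0.0424 CPM per kb. In OE, Foxo6 rose to 47.5 ± 0.7 CPM per kb, beside 45.9 ± 0.972 for Foxm1. When the longest transcript replaced the union of exons as the length, Foxm1 led in OE too, at 56.8 against 47.5 CPM per kb for Foxo6.

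**Figure D1:**
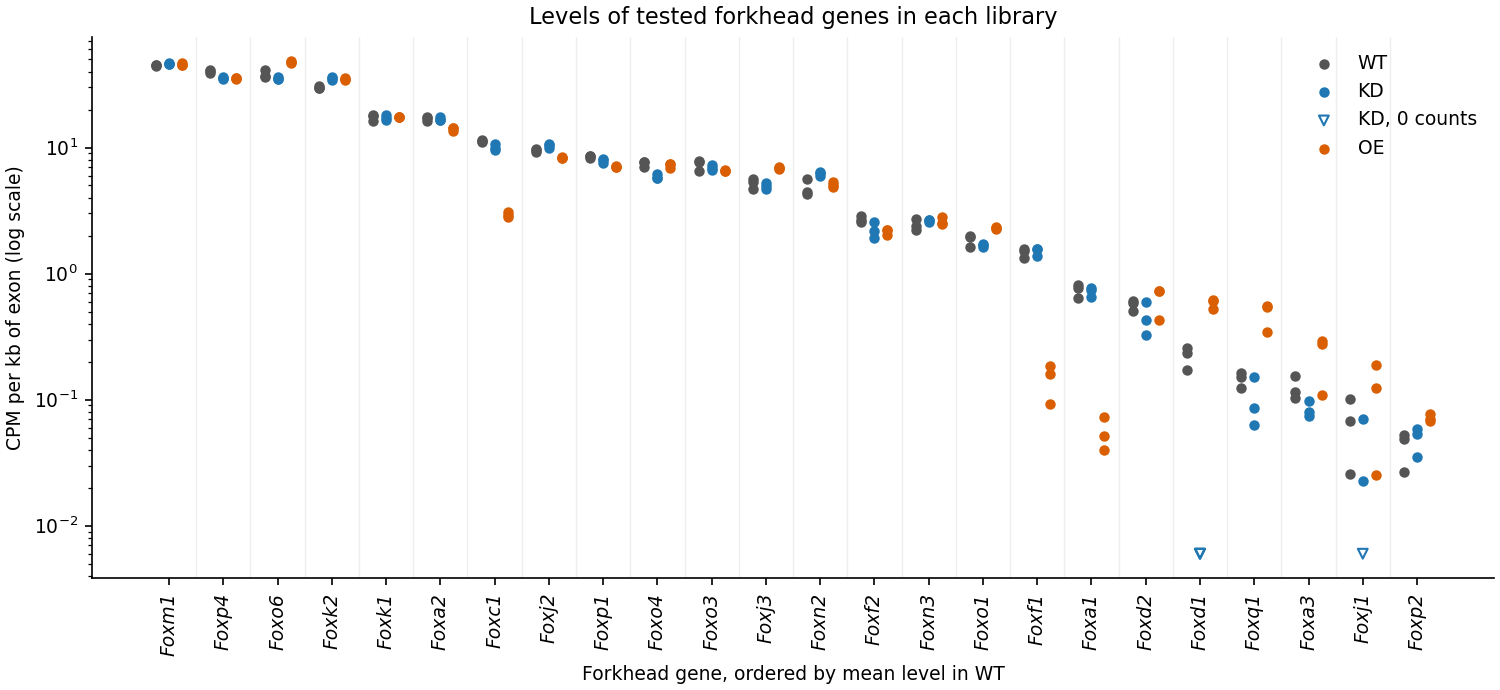
Level of the tested forkhead genes reported here in every library, in CPM per kb of exon on a log axis, with genes ordered by their mean in WT; points are libraries and open triangles at the bottom mark KD libraries with 0 counts. Foxm1 stood at 44.9 CPM per kb in WT, and Foxf1, Foxa1 and Foxc1 stood lower in all 3 OE libraries than in every other library.

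Summed over the 44 genes, the levels of the 3 groups lay close together. The sum was 270.4 ± 0.400 CPM per kb in WT, 268.5 ± 3.52 in KD and 273.5 ± 2.51 in OE. Foxm1 alone made up 16.4% to 17.3% of the sum in each library. The WT and KD sums overlapped, and the OE sums, from 272.0 to 276.4 CPM per kb, lay just above both.

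Genes below are called higher or lower where the quasi-likelihood test of edgeR, adjusted by the Benjamini-Hochberg method over all 16955 genes tested, gave an adjusted p below 0.05. KD differed from WT in few forkhead genes. Against WT, KD had 5 of 25 tested members called, 2 higher (Foxk2, Foxn2) and 3 lower (Foxd1, Foxo4, Foxp4). The share of all tested genes called was 21.3%, with 11.0% higher and 10.4% lower, so the members' 20% lay near the background. A change of at least 2-fold was called for 1 member, Foxd1, and for 2.64% of all genes. The KD and WT libraries did not overlap for 13 members, against 34.7% of all genes. The median log2 fold change over the 25 members was -0.08, and -0.00 over all genes.

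OE differed from WT in more of them. Against WT, OE had 15 of 25 members called, or 60%, where 36.4% of all genes were called. Of these, 7 were higher (among them Foxd1, Foxj3, Foxk2, Foxo1, Foxo6 and Foxq1) and 8 lower (Foxa1, Foxa2, Foxc1, Foxf1, Foxj2, Foxo3, Foxp1, Foxp4), beside 17.0% and 19.5% of all genes. When counts were scaled by library totals alone, the split became 5 higher and 9 lower. At least 2-fold changes were called for 5 members and for 5.34% of all genes. The groups did not overlap for 17 members, against 45.1% of all genes. The median size of the log2 fold change was 0.30 over the members and 0.22 over all genes.

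OE and KD differed in 15 members, 8 higher and 7 lower in OE, where 41.5% of all genes were called, 19.4% higher and 22.1% lower. The difference reached 2-fold for 6 members, Foxd1, Foxq1, Foxa3, Foxa1, Foxf1 and Foxc1, and for 7.49% of all genes. The groups did not overlap for 17 members, against 55.4% of all genes. The 3 comparisons share libraries, so they are not independent of each other, and the values of the members reported here are given side by side. In all, 18 members were called in at least 1 comparison and 7 in none.

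**Figure D2:**
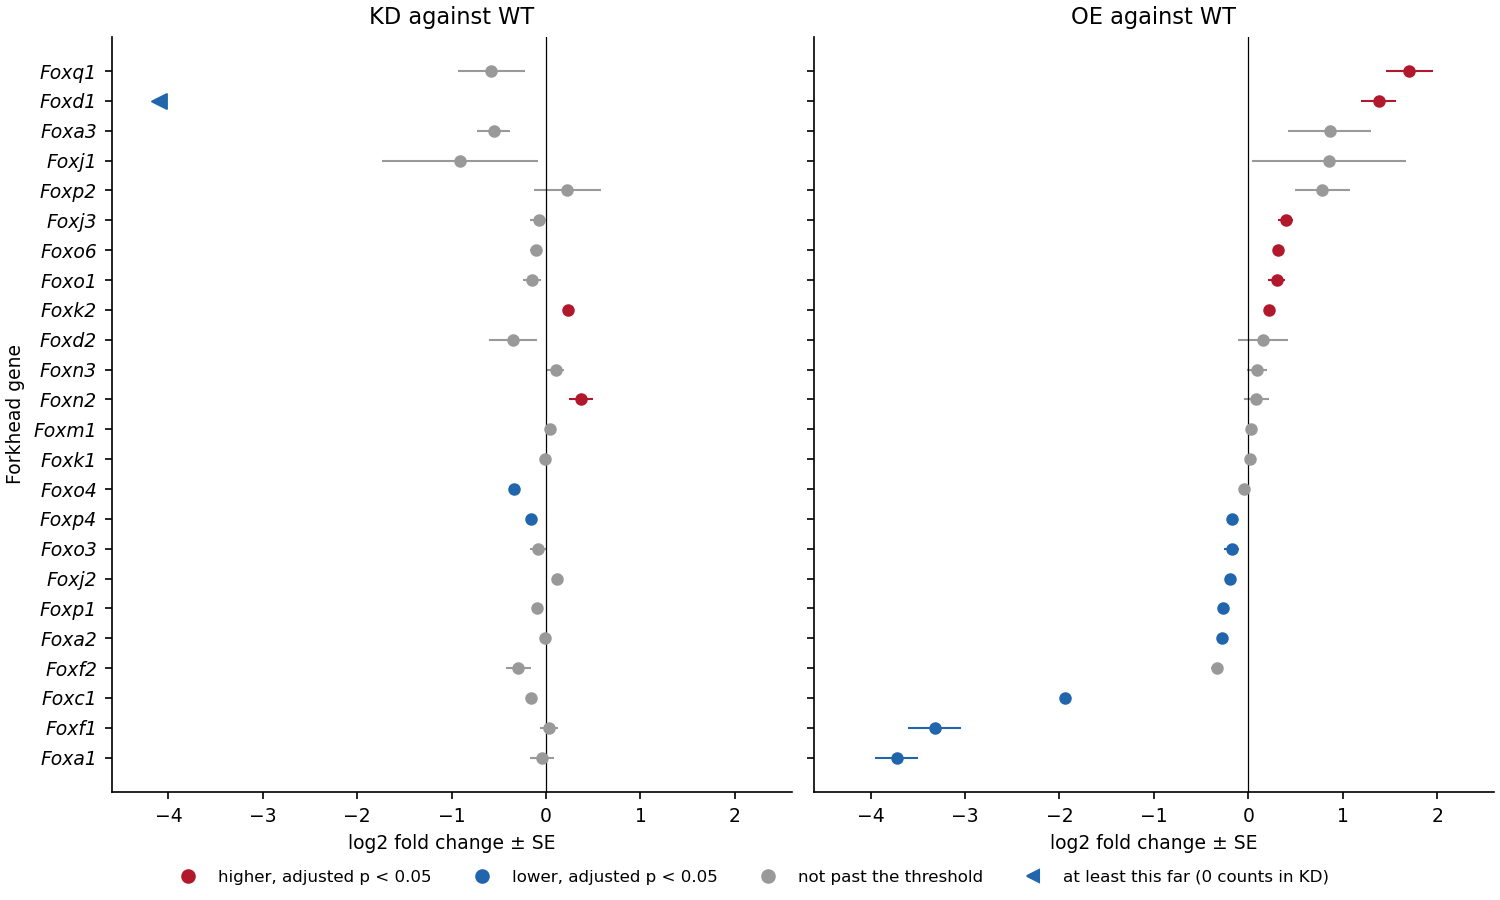
Log2 fold change ± SE of the tested forkhead genes reported here in KD against WT (left) and OE against WT (right), ordered by the change in OE; colours give the call at an adjusted p below 0.05, and the triangle is the lower bound for Foxd1, which had 0 counts in KD. Most changes in KD were small, while Foxa1, Foxf1 and Foxc1 fell and Foxq1 and Foxd1 rose by at least 2-fold in OE.

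Foxd1 was called lower in KD and higher in OE, a pattern that 1 of the 25 tested members had. The gene (chr13:98354242-98359305, plus strand) marks the stromal progenitors of the kidney, from which pericytes arise. It stood at 1.19, 1.31 and 0.873 CPM in WT, at 0 counts in all 3 KD libraries, and at 3.09, 3.11 and 2.65 CPM in OE. The 3 groups did not overlap, with KD lowest and OE highest. Against a floor of 3 counts per library, Foxd1 was at least 17.2-fold lower in KD than in WT (adjusted p = 3.15e-08 in edgeR). In OE it was 2.61-fold higher than in WT (log2 fold change 1.38, SE 0.186, adjusted p = 1.15e-04 in edgeR) and at least 45.0-fold higher than in KD (adjusted p = 6.11e-11 in edgeR). The level is low, so 0 counts in KD says that Foxd1 was not detectable at this depth. Foxd2, a paralog of Foxd1, was called in none of the comparisons and stood at 1.47 ± 0.142 CPM in WT, 1.16 ± 0.349 in KD and 1.63 ± 0.448 in OE.

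Foxc1, a regulator of mesoderm and of vessel formation, was the most abundant of the members that changed at least 2-fold. Its level was 66.5, 66.0 and 64.2 CPM in WT, 55.9, 62.9 and 57.9 CPM in KD, and 16.3, 16.9 and 18.0 CPM in OE. All OE libraries lay far below the rest, and the KD libraries lay just below the WT libraries without overlap. The fall in OE was 3.84-fold, a log2 fold change of -1.94 (SE 0.043, adjusted p = 8.33e-16 in edgeR). In KD the log2 fold change was -0.16 (SE 0.052, adjusted p = 0.05005 in edgeR), which just missed the threshold. That value passed it in 5 of the alternatives tried, with adjusted p from 0.01847 to 0.03916.

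Foxf1, which is needed for the vessels of the lung and yolk sac, also fell in OE. It stood at 3.22, 3.78 and 3.63 CPM in WT, at 3.32, 3.82 and 3.79 CPM in KD, and at 0.448, 0.384 and 0.222 CPM in OE. WT and KD overlapped, and all 3 OE libraries lay below both. The fall from WT to OE was 9.99-fold, a log2 fold change of -3.32 (SE 0.278, adjusted p = 3.39e-10 in edgeR). On GRCm38, Foxf1 lies on chr8:121084386-121088144 and overlaps 2 other annotated genes, Gm20388 on the same strand and Gm27530 on the opposite strand, whose reads could not be separated here because the use of strand in counting is not given in the sources used here.

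Foxa1 had the largest fold change of the tested members between OE and WT. The gene (chr12:57540628-57546916, minus strand) encodes a pioneer factor known from liver, breast and prostate. Its level was 2.56, 2.12 and 2.71 CPM in WT, 2.17, 2.54 and 2.46 CPM in KD, and 0.171, 0.242 and 0.133 CPM in OE. WT and KD overlapped and OE lay below both. The fall from WT to OE was 13.2-fold, a log2 fold change of -3.72 (SE 0.228, adjusted p = 1.08e-09 in edgeR), and that from KD was 12.8-fold.

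Foxq1, known from hair development and epithelial cells, rose in OE. It stood at 0.791, 0.739 and 0.604 CPM in WT, at 0.417, 0.728 and 0.307 CPM in KD, and at 1.66, 2.69 and 2.62 CPM in OE. The lowest OE library was above every WT and KD library, and WT and KD overlapped. The rise was 3.26-fold against WT, a log2 fold change of 1.71 (SE 0.247, adjusted p = 9.00e-05 in edgeR), and 4.87-fold against KD. Foxq1 overlaps the annotated gene A530084C06Rik on the opposite strand, whose reads could not be separated, as for the genes that overlap Foxf1.

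**Figure D3:**
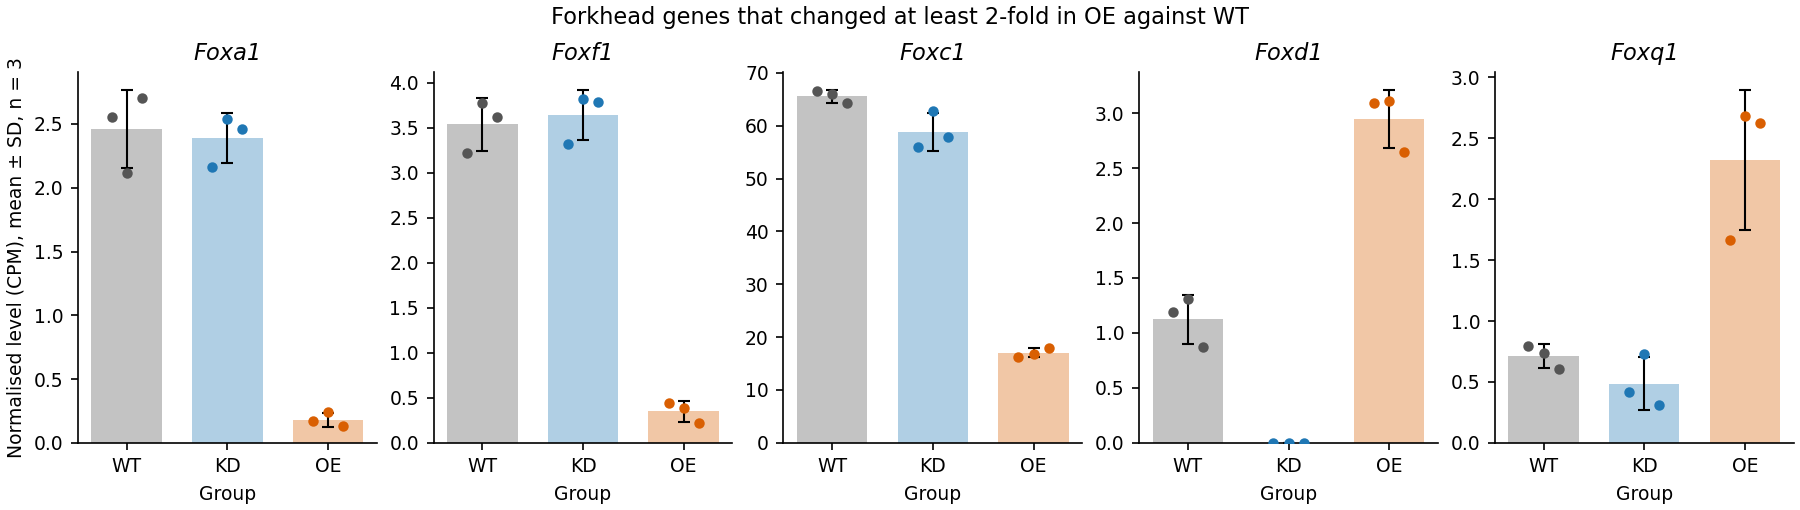
Normalised level in CPM of the 5 forkhead genes that changed at least 2-fold in OE against WT; bars are means, error bars SDs over 3 libraries, and points the libraries in the order of their replicate numbers. Foxa1, Foxf1 and Foxc1 were lower in all 3 OE libraries than in WT and KD, Foxq1 and Foxd1 were higher, and Foxd1 had 0 counts in KD.

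Some markers of other cell types and of RNA quality also differed between the groups. Of 11 fibroblast and mural markers 9 were tested, and 7 were lower in OE than in WT, among them Dcn (98.0 to 36.7 CPM) and Acta2 (7.74 to 1.76 CPM), while in KD 1 was higher and 2 were lower. Their summed level was 5150 to 5727 CPM in WT, 4891 to 4955 in KD and 4064 to 4157 in OE. Most of the WT sum came from Col1a1, and Lum had 0 counts in OE. The summed endothelial markers also fell from 146.9 to 159.7 CPM in WT to 124.1 to 131.1 in KD and 107.2 to 117.7 in OE. Most of that WT sum came from Eng. Of 6 tested endothelial markers, 0 were higher and 4 lower in KD than in WT. In OE 4 were lower than in WT and 1, Flt1, was higher. Of 5 mitochondrial transcripts taken as signs of RNA quality, 1 was higher in KD than in WT, 2 were lower in OE than in WT and 3 lower in OE than in KD, with sums of 5995 to 7012 CPM in WT, 7032 to 7269 in KD and 5637 to 6759 in OE. Of 3 tested epithelial markers 1 was lower in KD and 1 in OE than in WT, and of 2 tested lymphatic markers 1 was higher in KD and 1 lower in OE. Of all genes, 11.0% were higher and 10.4% lower in KD than in WT. In OE 17.0% were higher and 19.5% lower than in WT, and 22.1% were lower than in KD. Among 3 tested cardiomyocyte markers, 1 was lower in KD and 1 higher in OE than in WT. The 1 tested leukocyte marker was lower in OE than in KD and was not called against WT. The epithelial, lymphatic, mitochondrial, cardiomyocyte and leukocyte lists hold too few tested genes to set against these shares. The part of these lists in the forkhead results was not tested. Fewer cells of a type and less RNA per cell cannot be told apart in these bulk libraries.

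The 250 bases before the start of Foxa1, Foxc1 and Foxd1 are shown because these members fell or rose by at least 2-fold and have an entry in the RefSeq promoter table of GRCm38.p6. Capitals mark matches, on either strand, to the forkhead core TAAACA, the TATA box TATAAA, the CCAAT box CCAAT, the GC box GGGCGG and the cAMP response half-site TGACGT, and no match overlaps another in these windows. Foxa1 is read from the minus strand of chr12:57546112-57546361, Foxc1 from the plus strand of chr13:31806396-31806645 and Foxd1 from the plus strand of chr13:98353995-98354244. Each is written 5′ to 3′ toward the gene.
Foxa1: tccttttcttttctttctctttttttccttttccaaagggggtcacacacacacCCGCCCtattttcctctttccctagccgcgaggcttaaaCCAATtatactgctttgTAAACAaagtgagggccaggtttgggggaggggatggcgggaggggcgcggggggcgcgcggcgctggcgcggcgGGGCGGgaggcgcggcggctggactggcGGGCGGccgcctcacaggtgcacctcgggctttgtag
Foxc1: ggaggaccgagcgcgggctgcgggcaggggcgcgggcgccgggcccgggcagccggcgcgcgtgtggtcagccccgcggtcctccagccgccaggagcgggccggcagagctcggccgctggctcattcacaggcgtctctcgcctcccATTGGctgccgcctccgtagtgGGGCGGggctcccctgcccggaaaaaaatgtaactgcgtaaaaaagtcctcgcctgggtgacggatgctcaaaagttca
Foxd1: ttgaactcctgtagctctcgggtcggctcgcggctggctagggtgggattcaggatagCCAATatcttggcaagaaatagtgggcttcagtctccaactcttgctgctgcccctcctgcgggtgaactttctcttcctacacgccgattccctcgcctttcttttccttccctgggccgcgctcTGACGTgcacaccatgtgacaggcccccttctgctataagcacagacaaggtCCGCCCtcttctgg
Foxa1 holds 1 forkhead core 140 bases before its start, 1 CCAAT box and 3 GC boxes. Its RefSeq start lies inside the longer gene model of GENCODE M21, so these bases can also be transcribed. Foxc1 holds 1 CCAAT box and 1 GC box, and its 70.8% of G and C and 29 CpG pairs compare with medians of 52.4% and 6 over all promoters of this length. Foxd1 holds 1 CCAAT box, 1 GC box and 1 TGACGT.

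Of the 44 members 28 had such an entry, with 33 promoters among 32851 in the table. A forkhead core stood in 5 of the 33 (15.2%) and in 12.0% of all promoters, in Foxa1, Foxp3 and the 3 promoters of Foxp1. The GC box stood in 23 of the 33 (69.7%) and in 32.7% of all. The CCAAT box stood in 14 (42.4%) against 33.8%, the TATA box in 3 (9.09%) against 12.4% and TGACGT in 3 (9.09%) against 6.47%. A match describes letters and shows no binding.

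Of the members with large changes, Foxq1 and Foxc1 lie in one cluster and Foxf1 in another, and in the first the neighbouring members differed in direction. Foxq1 (chr13:31556134-31560976), Foxf2 (chr13:31625816-31631403) and Foxc1 (chr13:31806633-31812476) lie on the plus strand of chromosome 13 with starts 69.7 kb and 180.8 kb apart. In OE, Foxq1 rose, Foxc1 fell, and Foxf2, known from mesenchyme and brain pericytes, had a log2 fold change of -0.33 (SE 0.064, adjusted p = 0.05411 in edgeR). Foxf2 stood at 6.80, 6.34 and 6.06 CPM in WT, 5.11, 6.05 and 4.53 CPM in KD, and 5.24, 5.25 and 4.80 CPM in OE. Every Foxf2 value in KD and OE was below every WT value, and KD and OE overlapped. Its call in OE passed the threshold in 6 of the alternatives tried.

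The region around Foxf1 moved with it, by a smaller amount. Within 500 kb of Foxf1, 7 other genes were tested, and 5 were lower in OE than in WT, where 19.5% of all genes were lower. These were Gins2, Cox4i1, Emc8, Mthfsd and Fbxo31, with log2 fold changes from -0.44 to -0.56. Mthfsd, whose start is 24 kb away, fell by 0.52 on the log2 scale. The median over the other genes of the same 20 Mb window was -0.44, which leaves -2.88 of the -3.32 for Foxf1. Foxc2 and Foxl1, 31.8 kb and 43.6 kb from Foxf1, had too few counts to be tested. Near Foxa1, 2 of 3 tested neighbours were lower in OE, beside the same 19.5% of all genes. Their log2 fold changes were -1.30 for Mipol1 and -0.67 for Prps1l3, and both starts lie 316.5 kb from that of Foxa1. The median over the 78 other genes of the 20 Mb window of Foxa1 was 0.11, beside -3.72 for Foxa1.

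On chromosome 4, Foxj3 and Foxo6 rose in OE by about the median of their surroundings. Of all genes, 17.0% were higher and 19.5% lower in OE than in WT. Within 500 kb of Foxj3, 9 of 13 tested neighbours were higher in OE than in WT and 0 were lower. The log2 fold changes of Foxj3 (0.40) and Foxo6 (0.32) compare with medians of 0.36 and 0.35 in their 20 Mb windows, and taking the window median away leaves 0.04 and -0.03. Foxd2, also on chromosome 4, had a log2 fold change of 0.16 (adjusted p = 0.6956 in edgeR) beside a window median of 0.36, and 3 of its 5 tested neighbours were higher and 1 lower. Whether the rise of Foxj3 and Foxo6 was part of a change of the whole region was not tested beyond these values.

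**Figure D4:**
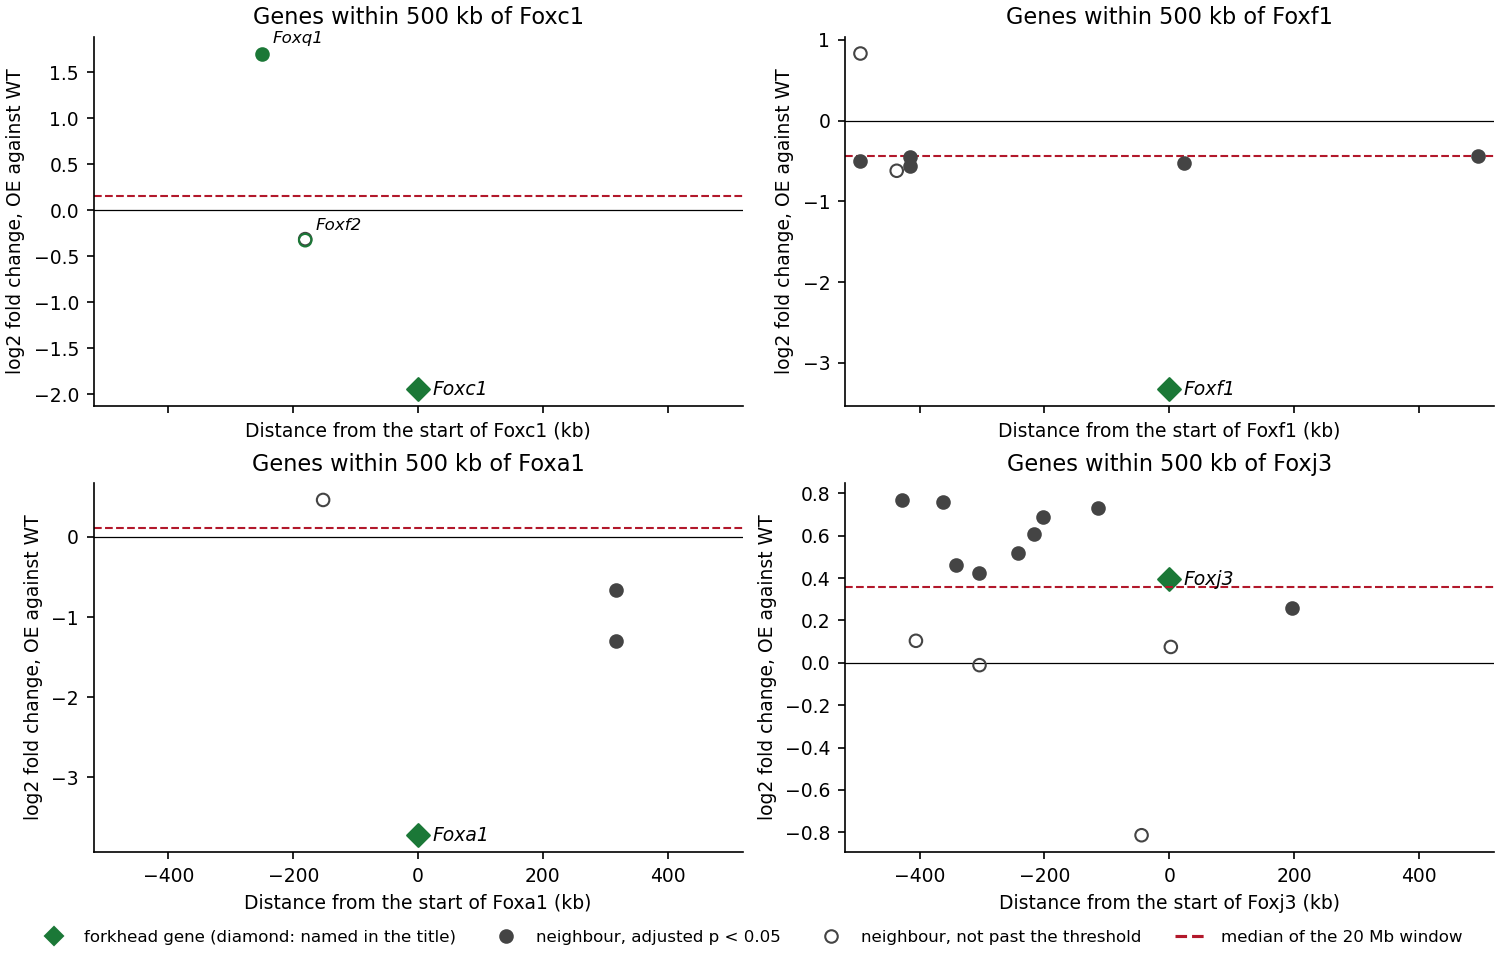
Log2 fold change in OE against WT of the genes tested within 500 kb of Foxc1, Foxf1, Foxa1 and Foxj3, by distance between gene starts in kb; filled points passed the threshold, open points did not, and the dashed line is the median of the 20 Mb window. Foxc1, Foxf1 and Foxa1 lie far from the dashed line, and Foxj3 lies at 0.40 beside a median of 0.36.

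The other FoxA genes changed less than Foxa1. Foxa2, a pioneer factor of endoderm, stood at 40.9, 38.5 and 41.6 CPM in WT, 41.4, 39.4 and 39.3 CPM in KD and 31.8, 34.0 and 33.8 CPM in OE. OE lay below both other groups, with a log2 fold change of -0.28 (SE 0.046, adjusted p = 5.29e-04 in edgeR) against WT. Foxa3, the liver paralog, stood at 0.211, 0.235 and 0.313 CPM in WT, 0.199, 0.151 and 0.164 CPM in KD and 0.597, 0.565 and 0.222 CPM in OE. OE replicate 3 was far below the other OE libraries. Foxa3 was called only between OE and KD among the 3 comparisons, with a log2 fold change of 1.42 (SE 0.423, adjusted p = 0.03303 in edgeR). The call was lost without any of the KD libraries or without OE replicate 1 or 2, with adjusted p from 0.06319 to 0.1312.

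FoxO genes, effectors of insulin and growth factor signalling, did not move together. Foxo1 stood at 17.0, 17.2 and 14.1 CPM in WT, 14.9, 14.7 and 14.1 CPM in KD, and 19.5, 19.95 and 20.2 CPM in OE. OE lay above both other groups, which overlapped. The log2 fold change of Foxo1 was 0.30 (SE 0.093, adjusted p = 0.005478 in edgeR) against WT and 0.45 against KD. With library totals alone as the scaling, the first became 0.24 with an adjusted p of 0.05022.

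Foxo3, which restrains the cell cycle and promotes cell death, stood at 49.5, 58.0 and 59.5 CPM in WT, 54.8, 52.3 and 50.6 CPM in KD, and 50, 48.9 and 49.0 CPM in OE. WT replicate 1 lay among the OE libraries, so the groups overlapped. The log2 fold change in OE was -0.18 (SE 0.083, adjusted p = 0.0289 in edgeR), and the call was lost without WT replicate 2 or 3 or any of the OE libraries, with adjusted p from 0.06321 to 0.09078 in edgeR.

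Foxo4, the X-linked member, stood at 26.7, 26.6 and 24.4 CPM in WT, 20.1, 21.4 and 19.97 CPM in KD, and 25.6, 25.9 and 24.1 CPM in OE. KD lay below WT and OE, which overlapped. Foxo4 fell by 0.34 on the log2 scale in KD (SE 0.053, adjusted p = 8.27e-04 in edgeR) and was higher in OE than in KD by 0.30. Foxo6, known mostly from brain, stood at 107.7, 95.6 and 96.5 CPM in WT, 95.1, 90.8 and 91.4 CPM in KD, and 122.7, 126.2 and 123.7 CPM in OE. The OE libraries were the highest and the KD libraries the lowest, without overlap. The log2 fold change of Foxo6 in OE was 0.32 (SE 0.057, adjusted p = 2.37e-05 in edgeR), and its sign turned once the median of its region was removed, as given above.

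Genes that control FoxO proteins were examined as a list of 29, all of which were tested. In KD 8 were higher and 2 lower, beside 21.3% of all genes called, with a median log2 fold change of 0.10. That count of 10 called became 17 without WT replicate 2, 5 without KD replicate 2 and 6 without KD replicate 3. Those with the smallest p were Pik3cb, a catalytic subunit of PI3 kinase (93.8 to 129.3 CPM, log2 fold change 0.46), the receptor substrate Irs2 (156.3 to 194.0 CPM, 0.31) and the receptor Igf1r (117.1 to 143.1 CPM, 0.29). In OE 9 were higher and 5 lower than in WT, beside 36.4% of all genes called, with a median of 0.05. In OE the kinase Sgk1 fell by 0.77 and the PI3 kinase subunit Pik3r1 by 0.56 on the log2 scale. Between OE and KD, 5 were higher and 10 lower, beside 41.5% of all genes called, with a median of -0.02. Pik3r1 had the smallest p and was lower in OE, at 62.8 ± 1.30 CPM in KD and 34.2 ± 0.918 in OE (log2 fold change -0.88). Pik3cd stood at 8.65 ± 1.01 CPM in KD and 19.9 ± 0.848 CPM in OE, a log2 fold change of 1.20. Removing the median of the 20 Mb window, a value with no test, left -0.30 for Pik3r1 in OE against WT, and -0.49 for Pik3r1 and 0.71 for Pik3cd in OE against KD.

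Genes known as FoxO targets moved in both directions. Of 35 listed, 28 were tested, and G6pc and Pck1, targets in liver, had 0 counts in every library. In KD 4 were higher and 8 lower than in WT, beside 21.3% of all genes called, with a median log2 fold change of -0.09. Ccng2, a cyclin that slows the cell cycle, fell from 20.4 ± 1.44 CPM in WT to 12.6 ± 0.835 in KD and stood at 31.6 ± 0.938 in OE. Ccnd2, a cyclin of the early cycle that FoxO proteins repress, was highest in KD and lowest in OE, at 122.6 ± 3.94 CPM in WT, 159.4 ± 5.23 in KD and 79.3 ± 1.48 in OE. Bcl2l11, a cell death gene, fell in KD from 46.8 ± 3.37 to 34.95 ± 0.631 CPM. In OE 11 were higher and 9 lower than in WT, beside 36.4% of all genes called, with a median of 0.08. Txnip rose from 27.2 ± 1.13 to 51.5 ± 4.43 CPM (log2 fold change 0.92), and the autophagy gene Map1lc3b fell from 87.0 ± 6.02 to 57.3 ± 0.636 CPM. The change of Map1lc3b was -0.60 on the log2 scale, and removing the window median left -0.16. Between OE and KD, 10 were higher and 7 lower, beside 41.5% of all genes called, with a median of 0.10.

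Foxm1, the mitotic forkhead factor, was the most abundant member per kb in WT and was called in none of the comparisons. It stood at 254.5, 260.5 and 259.9 CPM in WT, 264.8, 268.1 and 262.5 CPM in KD, and 261.0, 270.5 and 260.7 CPM in OE. All KD and OE libraries lay just above the WT libraries, and KD and OE overlapped. The log2 fold changes were 0.04 in KD (SE 0.014) and 0.03 in OE (SE 0.021), with adjusted p of 0.5506 and 0.5631 in edgeR.

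The listed targets of FoxM1, all 24 of which were tested, gave 4 calls in KD against WT, where 21.3% of all genes were called, and 20 in OE against WT, where 36.4% were. In KD 4 were higher and 0 lower than in WT, with a median log2 fold change of 0.04, and in OE 17 were higher and 3 lower, with a median of 0.19 where that over all genes was 0.00. Scaled by library totals alone, the count of called targets fell from 4 to 0 in KD and from 20 to 11 in OE. Leaving out a library moved the count in KD between 2 and 9, with 9 without WT replicate 2 and 2 without WT replicate 3, any KD library or OE replicate 1 or 2. No called target changed by 2-fold. Cenpe, a motor protein of the kinetochore, stood at 146.0 ± 18.6 CPM in WT and 212.9 ± 2.87 in OE, a log2 fold change of 0.54. Cdc20, an activator of the anaphase ubiquitin ligase, stood at 156.3 ± 3.71 and 219.0 ± 2.57 CPM, a log2 fold change of 0.49, of which 0.13 was left once the median of its 20 Mb window on chromosome 4 was removed. Ccnb2 went the other way, from 137.3 ± 2.34 CPM in WT to 153.8 ± 0.572 in KD and 113.5 ± 2.86 in OE, and Ccnb1 stood at 139.2 ± 6.13, 152.6 ± 3.77 and 120.8 ± 2.90 CPM. The log2 fold changes in OE against WT, -0.28 for Ccnb2 and -0.20 for Ccnb1, turned to 0.06 for each once the window medians were removed. That of Aspm, the other target called lower there, was -0.62 and stayed at -0.65 with its window median removed. Top2a rose in KD from 722.6 ± 55.2 to 829.6 ± 7.59 CPM (log2 fold change 0.20). Between OE and KD, 15 were higher and 3 lower, beside 41.5% of all genes called, with a median of 0.16.

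Of 8 genes listed as partners of FoxM1 or of the MuvB complex, 5 were higher and 0 lower in OE than in WT. In KD 1 was higher and 2 lower than in WT, and between OE and KD 4 were higher and 1 lower. The shares of all genes called were 36.4%, 21.3% and 41.5% in these comparisons. Mybl2 stood at 66.1 ± 2.87 CPM in WT, 65.7 ± 2.18 in KD and 94.8 ± 2.97 in OE. Rbbp4, a histone-binding subunit, stood at 227.2 ± 5.46, 184.6 ± 0.843 and 307.8 ± 4.29 CPM, lowest in KD and highest in OE. Its log2 fold changes of -0.30 in KD and 0.44 in OE became -0.12 and 0.09 once the window median was removed. Lin54, the DNA-binding subunit, was higher in KD by 0.36 on the log2 scale, Fzr1 was lower there by 0.20, and Lin9 was higher in OE by 0.29. The count in OE against WT fell from 5 to 3 without OE replicate 3 and with library totals alone, and that in OE against KD from 5 to 3 without OE replicate 2.

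**Figure D5:**
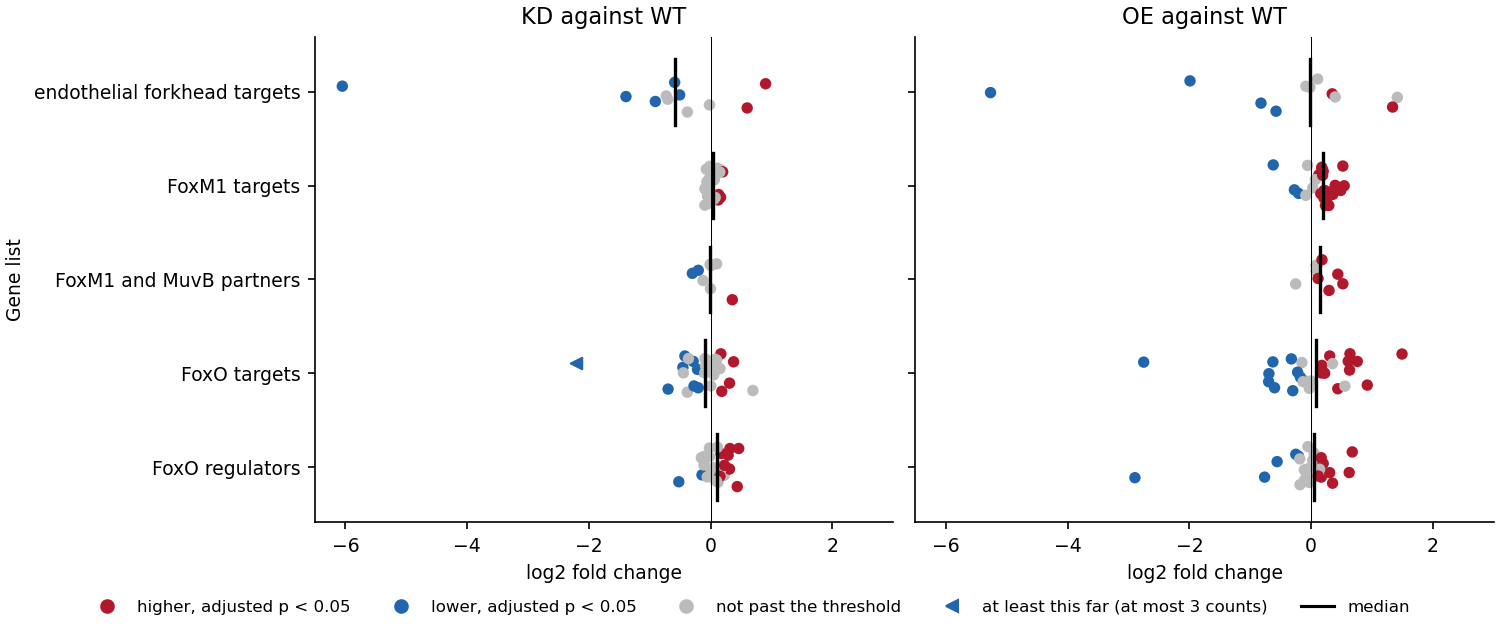
Log2 fold changes of the tested genes of 5 lists in KD against WT (left) and OE against WT (right); each point is a gene, colours give its call, the triangle is a lower bound and the black bar is the median. FoxM1 targets centred on 0.19 in OE, while FoxO regulators and FoxO targets spread to both sides.

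FoxK proteins repress autophagy genes and promote glycolysis. Foxk2 was higher in both modified lines, at 154.9, 161.1 and 156.5 CPM in WT, 179.8, 190.5 and 185.9 CPM in KD, and 182.6, 180.9 and 188.9 CPM in OE. KD and OE overlapped, and both lay above WT. The log2 fold changes were 0.24 in KD (SE 0.030, adjusted p = 2.38e-04 in edgeR) and 0.23 in OE (SE 0.026, adjusted p = 1.56e-04 in edgeR). With library totals alone, the change in OE became 0.16 with an adjusted p of 0.05307, and with the window median removed it was 0.34. Foxk1 stood at 131.3 ± 7.29 CPM in WT, 130.5 ± 5.39 in KD and 132.8 ± 0.194 in OE, and its adjusted p against WT was 0.9264 in KD and 0.8325 in OE in edgeR.

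Of the FoxP repressors, Foxp4 was lower in both modified lines. It stood at 198.0, 190.6 and 201.3 CPM in WT, 177.8, 173.5 and 175.3 CPM in KD, and 175.9, 176.0 and 172.7 CPM in OE. Every KD and OE value was below every WT value. The log2 fold changes were -0.16 in KD (SE 0.025, adjusted p = 0.004583 in edgeR) and -0.17 in OE (SE 0.025, adjusted p = 0.001809 in edgeR). Foxp1, which also acts in endothelial cells, stood at 113.9, 117.0 and 117.2 CPM in WT, 109.6, 112.2 and 104.5 CPM in KD, and 95.7, 97.4 and 96.0 CPM in OE. The groups did not overlap, with WT highest and OE lowest, and Foxp1 fell by 0.27 on the log2 scale in OE (SE 0.016, adjusted p = 3.76e-05 in edgeR). Foxp2, a factor of brain and lung, stood at 0.693 ± 0.224 CPM in WT, 0.801 ± 0.201 in KD and 1.18 ± 0.0821 in OE. Its log2 fold change in OE was 0.78 (SE 0.289, adjusted p = 0.05682 in edgeR).

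Foxj1 controls motile cilia, and Foxj2 and Foxj3 are broadly expressed relatives. Foxj2 stood at 49.1, 52.1 and 51.4 CPM in WT, 55.8, 52.8 and 57.2 CPM in KD, and 44.0, 44.5 and 44.7 CPM in OE. OE lay below WT and KD above it, and the log2 fold change in OE was -0.20 (SE 0.026, adjusted p = 0.004608 in edgeR), or -0.13 with the window median removed. Foxj3 stood at 51.5, 59.0 and 61.4 CPM in WT, 54.3, 57.0 and 51.7 CPM in KD, and 74.7, 76.8 and 75.0 CPM in OE. OE was the highest group, with a log2 fold change of 0.40 (SE 0.078, adjusted p = 1.69e-05 in edgeR). Foxj1 reached at most 0.490 CPM in any library, with 0 in KD replicate 2, and was called in none of the comparisons.

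Foxn2 was called higher than WT in KD and was not called in OE. It stood at 31.3, 41.4 and 32.8 CPM in WT, 44.0, 46.9 and 45.8 CPM in KD, and 36.1, 39.4 and 36.9 CPM in OE. KD lay above both other groups, and WT replicate 2 was above the OE libraries. Foxn2 rose in KD by 0.37 on the log2 scale (SE 0.127, adjusted p = 0.003433 in edgeR) and was lower in OE than in KD, with a log2 fold change of -0.28 (adjusted p = 0.01008 in edgeR). Foxn3, a repressor linked to the DNA damage checkpoint, stood at 28.1 ± 2.98 CPM in WT, 30.3 ± 0.648 in KD and 30.1 ± 2.23 in OE and was not called.

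The 19 members with too few counts to be tested were Foxb1, Foxb2, Foxc2, Foxd3, Foxd4, Foxe1, Foxe3, Foxh1, Foxi1, Foxi2, Foxi3, Foxl1, Foxl2, Foxn1, Foxn4, Foxp3, Foxr1, Foxr2 and Foxs1. Of these 11 had at most 3 counts in every library, and Foxr2 had 0 counts in all 9. Foxc2, the paralog of Foxc1 that shapes lymphatic valves, reached at most 4 counts (0.0895 CPM). Foxp3, the factor of regulatory T cells, reached 9 counts (0.179 CPM), Foxe1 reached 0.158, Foxh1 0.141, Foxd4 0.121, Foxs1 0.107 and Foxn1 0.0853 CPM in their highest library. The others besides Foxr1 reached at most 0.0445 CPM. Foxr1 differed between replicates of a group, with 47 counts in WT replicate 1 (1.24 CPM) and 16 in OE replicate 1 and at most 2 in every other library.

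Genes reported as targets of forkhead factors in endothelial cells were mixed. Of 16 listed 11 were tested. In KD 2 were higher and 5 lower than in WT, with a median log2 fold change of -0.59, and in OE 2 were higher and 4 lower, with a median of -0.02, beside 21.3% and 36.4% of all genes called. Tal1, a factor of blood and endothelial development, stood at 4.45 ± 0.523 CPM in WT, 0.0618 ± 0.0504 in KD and 0.112 ± 0.0852 in OE, and lies 147.6 kb from Foxd2. Tek, the angiopoietin receptor, fell from 1.84 ± 0.114 CPM in WT to 0.460 ± 0.120 in OE. Flt1, a receptor for vascular growth factor, was lower in KD (12.1 ± 0.979 CPM) and higher in OE (21.9 ± 1.58 CPM). Vegfc, the lymphatic growth factor, showed the same order, with 2.04 ± 0.414 CPM in WT, 0.769 ± 0.275 in KD and 5.21 ± 0.734 in OE. Sema3c fell in both, from 140.4 ± 12.3 CPM to 93.4 ± 1.79 in KD and 79.4 ± 0.770 in OE. Between OE and KD, 3 were higher and 3 lower, beside 41.5% of all genes called, with a median of 0.33.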

How the data were processed

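Poly-A RNA-seq was read from 9 libraries of MCEC, 3 each of WT, KD and OE, grouped by their labels. The deposited values are whole numbers, so they were read as raw counts of each gene in each library. The build is GRCm38 (mm10), per the submitters' processing notes; the aligner, the counting program, the annotation and the use of strand are not given in the sources used here. Its 55774 rows repeat 168 genes, which were counted once, leaving 55487 genes. Every row named a gene and 0 count columns were left unmatched. GENCODE M21 on GRCm38 gave positions and lengths of 55227 genes and of all 44 members.

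Genes were kept with filterByExpr, scaled with TMM and fitted over all 9 libraries with edgeR 4.0.16 (quasi-likelihood test, robust, group as the only term), with Benjamini-Hochberg adjustment over 16955 genes and a threshold of 0.05. Levels are CPM with TMM factors, as mean ± SD over 3 libraries, or per kb of the union of exons. The SE comes from the SDs of log2 CPM with a prior count of 2. A fold against a group at or under 3 counts per library is a lower bound computed at that floor. Medians over the forkhead members were the same with such members at their bound, and medians of the other lists were not recomputed. Tables were made with pandas 2.3.3, numpy 2.4.6 and Python 3.11.15, plots with matplotlib 3.10.9, and alternatives with DESeq2 1.42.0 and limma 3.58.1, all model fits under R 4.3.3. The fit was tested on simulated data. With 3 libraries a group, the smallest two-sided p of an exact permutation test is 0.1, so no such test was used. Replicates of a group differed by 2.98 to 11.4 times the sampling noise, so none was a repeat deposit.

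The members and the gene lists were chosen with earlier results of these data known. By rule, tested members were described in all groups, with every library's value where a member was called or was among the 3 highest per length; members too low to test were named with their highest level, and from each list the 3 genes with the smallest p in a comparison were named. The neighbours of members, the cell type markers named and the FoxM1 target Aspm stand outside that rule and were picked with their values in view. 1 member and 1 gene of a list enter the fits and counts but are not reported here by name. The ribosomal RNA share was 7.32% to 17.1% of counts in WT, 9.44% to 11.8% in KD and 14.2% to 18.0% in OE; its part in the results was not tested. Alternatives were other scalings, filters, tests, a minimum fold change of 1.5, the replicate number as a block, fits of 2 groups, leaving out each library, the longest transcript as length, and removal of the median of each 20 Mb window.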

Additional observations from a re-analysis of the deposited data

Results flagged for a closer look

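Foxd2os, a transcript whose start lies 0.4 kb from that of Foxd2 on the opposite strand, is not a member and gave a signal above that of the control libraries. Its level was 3.16 ± 0.251 CPM in WT (SD, n = 3), 3.22 ± 0.246 in KD and 5.55 ± 0.578 in OE, a log2 fold change of 0.81 (SE 0.107, adjusted p = 1.23e-04 in edgeR) in OE against WT. Foxd2 itself had a log2 fold change of 0.16 (adjusted p = 0.6956 in edgeR), and the median of the other genes of its 20 Mb window was 0.36.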

How the results depend on the processing

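Of 35 calls of a forkhead gene in a comparison, 31 held under every alternative that gave a test, other than the minimum fold change of 1.5, which 11 passed. That minimum left 1 member called for KD against WT, 5 for OE against WT and 5 for OE against KD. Leaving out a library gave 5 to 8, 14 to 16 and 14 to 17 members for the same comparisons, the 8 without WT replicate 2. DESeq2 lost 0 calls, limma-voom 1 (Foxa3), upper-quartile factors 1 (Foxo3) and library totals alone 2 (Foxk2 and Foxo1 in OE against WT), and 6 had no value when 10 counts were asked of every library. The other scalings shifted the median of all genes by -0.06 to 0.06 on the log2 scale. Removing the median of the 20 Mb window, a value with no test, reversed Foxj3 (-0.000253) and Foxo6 (-0.071) in OE against KD, Foxo6 (-0.0318) in OE against WT, Ccnb1 in KD against WT (-0.0332), OE against WT (0.0592) and OE against KD (0.0708), Ccnb2 in OE against WT (0.0635) and OE against KD (0.0217), and Mthfsd in OE against KD (0.00874). The cause of these differences was not tested. Members under 1 CPM are limited by depth.

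With the replicate number as a block, 5, 15 and 14 members were called for these comparisons, and Foxa3 was lost from OE against KD. Same-numbered libraries had correlations of -0.042 to 0.049 between their deviations, and no label says that a number marks a shared culture.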
